A study of Mus musculus with 7 samples.

Results

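The genes of the cytosolic ribosome and of the mitochondrial respiratory chain were examined for Fos peaks at their ends in the mouse hippocampus, as a set of housekeeping promoters. They were all protein-coding genes on chromosomes 1 to 19 whose symbol begins with Rpl or Rps and a digit (Rps6k kinases left out), with Nduf, with Uqcr, or with Cox4 to Cox8. This rule found 155 of 20665 protein-coding genes, of which 83 have ribosomal protein symbols and 72 have respiratory chain symbols. Among them, 16 are duplicate or tissue-restricted paralogs such as Cox4i2 and Rpl10l, and 9 more are retrocopies or relatives such as Rpl7l1.

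The data were peak lists from chromatin immunoprecipitation with an anti-Fos antibody, followed by sequencing. All mice were wild-type C57BL/6J, 2 months old. Control animals received saline (PBS), and the others received the seizure-inducing glutamate agonist kainic acid, in 2 intraperitoneal injections of 10 mg/kg given 30 min apart. The kainic acid mice reached level 4 seizures, and their hippocampi were taken 1 hour after the first injection. There were 3 libraries in each group, with 1 peak list each, and an input library that was not analysed here. Neither the number of animals behind a library nor whether libraries came from separate animals is given in the labels, so p-values measure only the spread between these libraries. Whole hippocampus was used, so the cell type that carries a peak cannot be told.

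Ribosomal proteins form, with ribosomal RNA, the large and small subunits of the ribosome, which translate every cellular mRNA. Complex I takes electrons from NADH, complex III passes them from ubiquinol to cytochrome c, and complex IV hands them to oxygen. Nearly all cells transcribe these genes steadily from CpG-rich promoters. Fos pairs with Jun proteins to form AP-1, which neurons make after strong activity and which binds mainly at enhancers. These genes are used here as housekeeping genes, which are not known as induced by activity.

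The lists differed greatly in length. Saline replicates 1, 2 and 3 held 7, 3277 and 2 peaks, and kainic acid replicates 1, 2 and 3 held 15009, 63197 and 29650. Saline replicate 2 thus stands apart from the other saline libraries, and every saline count of members above 0 comes from it. In that list 58.8% of all summits lay within 1 kb of an end of some protein-coding gene, against 6.21%, 10.3% and 7.63% in the kainic acid lists.

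Promoters of 7 members are shown because the results return to them. Each is the stretch of 250 bases just before the RefSeq start (GRCm38.p6), written 5′ to 3′ on the strand of the gene. Capitals mark matches to any of 7 motifs: TGANTCA (AP-1, N being any base), TGACGTCA (the cyclic AMP response element, CRE), CCGGAAG (ETS factors), the 10-letter motifs of NRF1 and YY1, GGGCGG (Sp1 and KLF factors) and CCAAT (NF-Y), on either strand. Rpl27a and Ndufb7 had a summit of saline replicate 2 inside the stretch and no kainic acid peak at either end. Rpl22l1 had a summit of kainic acid replicate 1 next to its start, and Rps13 and Rps10 had end peaks in all 3 kainic acid lists. Rpl9 holds an AP-1 match, and Ndufa11 holds a CRE match but had no peak within 10 kb in any list.
Rpl27a, chr7:109518945-109519194, plus strand: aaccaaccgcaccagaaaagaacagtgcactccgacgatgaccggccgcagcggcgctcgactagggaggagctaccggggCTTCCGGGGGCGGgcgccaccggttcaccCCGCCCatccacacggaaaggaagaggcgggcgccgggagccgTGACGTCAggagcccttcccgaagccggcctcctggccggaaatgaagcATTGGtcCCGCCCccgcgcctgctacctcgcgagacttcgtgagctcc
Ndufb7, chr8:83566508-83566757, plus strand: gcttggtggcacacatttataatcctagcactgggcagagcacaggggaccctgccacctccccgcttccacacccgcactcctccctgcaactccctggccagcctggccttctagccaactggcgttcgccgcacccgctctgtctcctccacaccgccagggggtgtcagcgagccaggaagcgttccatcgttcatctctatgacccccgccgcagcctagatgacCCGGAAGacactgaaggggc
Rpl22l1, chr3:28805258-28805507, plus strand: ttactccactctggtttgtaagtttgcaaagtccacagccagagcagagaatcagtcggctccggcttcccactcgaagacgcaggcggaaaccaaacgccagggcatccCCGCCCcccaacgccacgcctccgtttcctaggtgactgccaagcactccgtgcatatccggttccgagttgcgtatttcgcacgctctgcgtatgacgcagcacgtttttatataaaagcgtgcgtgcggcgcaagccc
Rps13, chr7:116334191-116334440, minus strand: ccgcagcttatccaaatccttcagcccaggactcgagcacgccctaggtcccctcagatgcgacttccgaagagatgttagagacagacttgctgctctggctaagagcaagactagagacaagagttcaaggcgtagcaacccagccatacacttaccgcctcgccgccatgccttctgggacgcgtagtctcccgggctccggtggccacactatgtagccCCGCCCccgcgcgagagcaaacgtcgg
Rps10, chr17:27635245-27635494, minus strand: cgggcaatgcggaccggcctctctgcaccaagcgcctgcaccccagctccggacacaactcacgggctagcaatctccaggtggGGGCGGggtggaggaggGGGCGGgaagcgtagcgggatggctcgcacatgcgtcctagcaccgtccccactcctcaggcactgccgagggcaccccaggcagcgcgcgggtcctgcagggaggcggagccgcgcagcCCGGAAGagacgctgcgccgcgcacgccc
Rpl9, chr5:65391432-65391681, minus strand: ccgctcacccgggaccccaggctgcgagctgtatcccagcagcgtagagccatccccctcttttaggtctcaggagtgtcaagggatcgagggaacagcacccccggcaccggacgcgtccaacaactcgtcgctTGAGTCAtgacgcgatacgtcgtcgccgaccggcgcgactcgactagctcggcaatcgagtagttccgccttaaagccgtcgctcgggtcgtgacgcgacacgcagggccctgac
Ndufa11, chr17:56717512-56717761, plus strand: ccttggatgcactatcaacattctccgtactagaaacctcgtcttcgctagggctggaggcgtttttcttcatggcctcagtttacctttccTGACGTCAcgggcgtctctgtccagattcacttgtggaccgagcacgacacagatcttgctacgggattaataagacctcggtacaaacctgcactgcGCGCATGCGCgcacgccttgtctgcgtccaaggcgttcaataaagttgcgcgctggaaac

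The first comparison asks whether more of these genes had a Fos peak at an end after kainic acid. A gene was counted when at least 1 peak summit lay within 1 kb of either end of its span. In saline replicates 1, 2 and 3 the counts were 0, 11 and 0 of 155 genes. In kainic acid replicates 1, 2 and 3 they were 12, 69 and 30 of 155. Each kainic acid count was above each saline count, but kainic acid replicate 1 and saline replicate 2 differed by 1 gene. As percentages of the members, kainic acid libraries averaged 23.9% ± 18.8 (SD, n = 3), and saline libraries averaged 2.37% ± 4.10 (SD, n = 3). The difference of 21.5 percentage points exceeded the SD of either group, and a two-sided exact permutation test gave p = 0.1 (0.1 after Benjamini-Hochberg adjustment over 2 comparisons), which no split of 6 libraries into equal groups can go below. Saline replicates 1 and 3 could reach few genes with 7 and 2 peaks. Counts of members followed list length across the kainic acid libraries, and without kainic acid replicate 2 their mean was 13.5% and the difference 11.2 percentage points.

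Set beside all protein-coding genes, the saline and kainic acid lists lay on different sides of the background. In saline replicate 2, 7.10% of the members had an end peak (95% Clopper-Pearson interval 3.60 to 12.3), against 10.1% of all genes, a ratio of 0.706. In kainic acid replicate 1 the members' share was 7.74% (4.06 to 13.1), against 4.59% of all genes. In replicate 2 it was 44.5% (36.5 to 52.7), against 27.9%. In replicate 3 it was 19.4% (13.5 to 26.5), against 11.0%. The 3 kainic acid ratios were 1.69, 1.59 and 1.76, a mean of 1.68 ± 0.0825 (SD, n = 3), over lists of 15009 to 63197 peaks. The interval excluded the background in kainic acid replicates 2 and 3 and included it in kainic acid replicate 1 and saline replicate 2. These intervals cover counting error only, and with a single long saline list the difference between groups in this ratio was not tested.

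**Figure D1:**
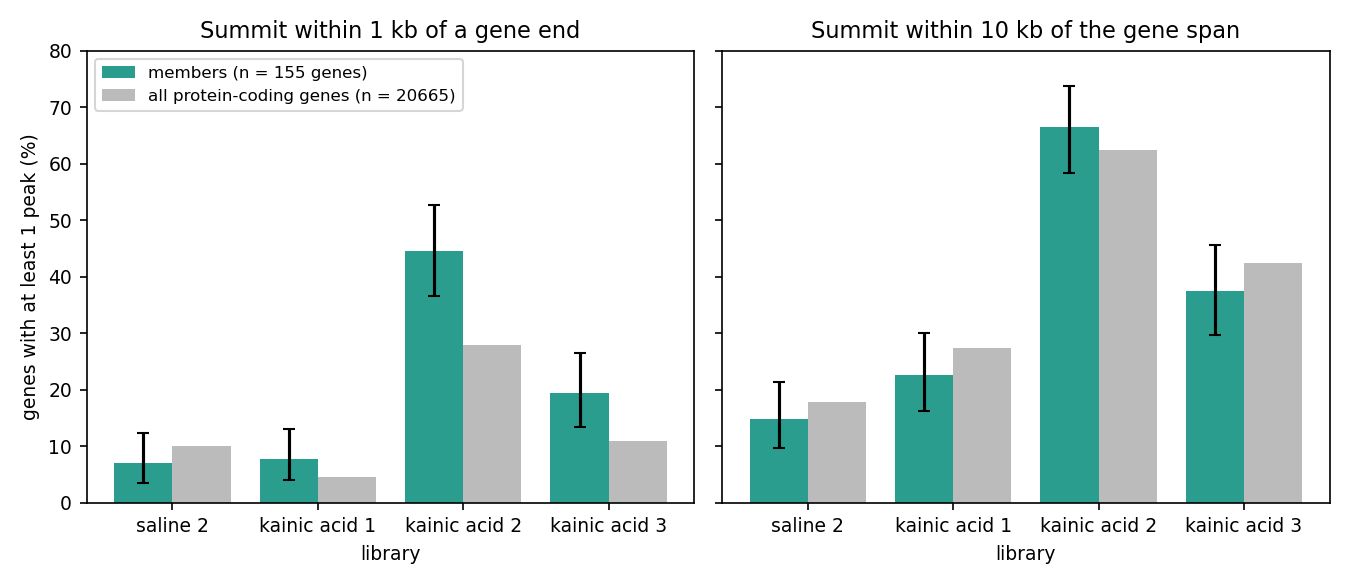
Percentage of genes with at least 1 summit within 1 kb of a gene end (left) and within 10 kb of the gene span (right) in the 4 long lists, for the 155 members (green, bars are 95% Clopper-Pearson intervals) and all 20665 protein-coding genes (grey). At gene ends the members lie above the grey bar in the 3 kainic acid lists (44.5% against 27.9% in replicate 2) and below it in saline replicate 2 (7.10% against 10.1%), while at 10 kb the bars lie closer together.

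The wider reach gave another order. Within 10 kb of the span, 0, 23 and 0 members had a peak in saline replicates 1, 2 and 3, and 35, 103 and 58 had one in kainic acid replicates 1, 2 and 3. Kainic acid libraries averaged 42.2% ± 22.3 (SD, n = 3) and saline libraries 4.95% ± 8.57 (SD, n = 3), and the two-sided exact permutation test again gave p = 0.1 (adjusted 0.1) for the difference of 37.2 percentage points. Over all genes the shares were 0.0145% in saline replicate 1, 17.9% in saline replicate 2 and 27.5%, 62.4% and 42.4% in kainic acid replicates 1, 2 and 3. The members' shares of 14.8%, 22.6%, 66.5% and 37.4% gave ratios of 0.828, 0.822, 1.06 and 0.882. The surplus over the background at gene ends was thus absent at 10 kb in kainic acid replicates 1 and 3.

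Gene length moves with this second measure. The members' median span was 4.14 kb, against 17.5 kb for all genes. Among genes with a span under 20 kb, the 10 kb shares were 20.8%, 66.0% and 36.8% of 144 members in the kainic acid lists, against 14.7%, 48.8% and 28.1% of 11089 genes. In saline replicate 2 they were 14.6% of members and 14.8% of genes. At gene ends, 12, 64 and 29 of these 144 members had a kainic acid peak (8.33%, 44.4% and 20.1%), against 3.99%, 23.3% and 9.26% of the short genes. The long saline list had 9 of 144 (6.25%), against 7.87%. Among short genes, too, the members' kainic acid shares lay above those of the class, with ratios of 2.09, 1.91 and 2.17, and at 10 kb the ratios were 1.42, 1.35 and 1.31.

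Neighbouring genes were also counted, since members lie close to other genes. Another protein-coding gene ended within 1 kb of an end of 69 of the 155 members (44.5%), against 25.6% of all genes. Among the 86 members without such a neighbour, 6, 39 and 17 had an end peak in kainic acid replicates 1, 2 and 3, which is 6.98%, 45.3% and 19.8%. The same shares over the 15370 genes without a neighbour were 4.29%, 24.3% and 10.0%. The long saline list reached 4 of 86 members (4.65%), against 8.30%. Among the 69 members with a neighbour, 6, 30 and 13 had a kainic acid end peak (8.70%, 43.5% and 18.8%), against 5.46%, 38.7% and 13.9% of 5295 genes, and 7 had one in saline replicate 2 (10.1%, against 15.1%). For members with a neighbour the 95% Clopper-Pearson intervals of the members' shares included the background in each kainic acid list. Without a neighbour they included it in replicate 1 and lay above it in replicates 2 and 3. These intervals cover counting error only. The members' own shares were close with and without a neighbour in replicate 2 (43.5% and 45.3%) and replicate 3 (18.8% and 19.8%). It was the background that was higher with a neighbour (38.7% and 24.3%, 13.9% and 10.0%). The difference between the 2 classes of members was not tested.

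By role, small subunit genes had the highest share of members with an end peak in at least 2 kainic acid lists among the groups with 10 or more genes. It was 10 of 33 (30.3%), against 10 of 50 large subunit genes (20.0%), 6 of 39 complex I subunit genes (15.4%) and 2 of 17 complex IV genes (11.8%). In the small groups it was 1 of 8 complex I assembly genes and 2 of 8 complex III genes. Over all 155 members it was 31 (20.0%), and over all protein-coding genes it was 10.7%. An end peak in all 3 kainic acid lists was found for 10 members (6.45%), against 3.92% of all genes. Roles follow the symbol prefix alone, so the groups include the paralogs, retrocopies and relatives. A symbol need not match the place of its protein. Differences between roles were not tested.

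**Figure D2:**
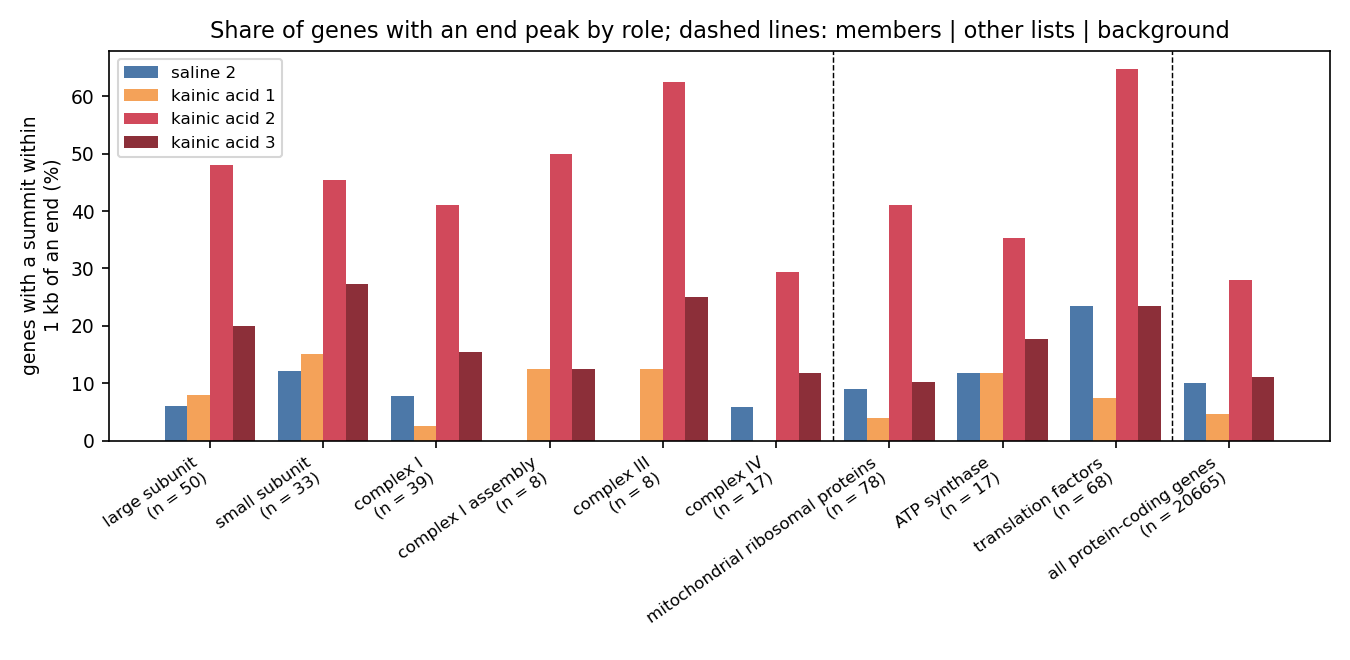
Percentage of genes with a summit within 1 kb of an end, by role, in the 4 long lists (colours); n is the number of genes. In kainic acid replicate 2 the ribosomal subunits reach 48.0% and 45.5% and complex IV reaches 29.4%, close to the 27.9% of all protein-coding genes.

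Among the 33 small subunit genes, 4 had an end peak in saline replicate 2, and 5, 15 and 9 had one in kainic acid replicates 1, 2 and 3. Of these, 4 had one in all 3 kainic acid lists, among them Rps13, Rps10 and Rps23. Rps13 (chromosome 7, 116331507 to 116334190, minus strand) had peaks at both ends in each kainic acid list. The peak near its start had a fold of 3.23, 6.90 and 5.87 over local background in kainic acid replicates 1, 2 and 3, with summits 651, 671 and 526 bp downstream of the start. Folds are the authors' own values and are not scaled between libraries. The peak at the far end had folds of 5.25, 9.00 and 4.15. Saline replicate 2 also had a peak at Rps13, with a fold of 5.00 and its summit 143 bp downstream of the start, 383 to 528 bp from the kainic acid summits. Rps13 was the only member with an end peak in all 4 long lists, and the peaks of kainic acid replicates 2 and 3 overlapped the saline peak.

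Rps10 (chromosome 17, 27630415 to 27635244), a gene mutated in some Diamond-Blackfan anaemia patients, had folds of 3.21, 3.84 and 3.79, with summits 656, 685 and 560 bp upstream of its start. The 3 libraries thus placed the Rps10 peak within a narrow stretch. Rps23, whose protein forms part of the decoding centre, had folds of 3.16, 4.68 and 2.83, but the sites differed. The summit lay 975 bp downstream of the start in kainic acid replicate 1 and 512 and 713 bp upstream in replicates 2 and 3.

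Rps19, the gene most often mutated in that anaemia, had a peak upstream of its start in kainic acid replicates 2 and 3 and in saline replicate 2 (chromosome 7, 24884592 to 24889811). The fold was 11.3 and 5.35 in kainic acid replicates 2 and 3 and 3.01 in saline replicate 2, with summits 762, 723 and 572 bp upstream. In kainic acid replicate 2 this peak ranked at the 2.38 percentile of the list by −log10 q, where 0 is the strongest peak. The saline peak ranked at 93.8, near the end of its list, and both kainic acid peaks overlapped it. Kainic acid replicate 2 held a weaker peak 412 bp downstream (fold 3.18). Rps21 had a peak of saline replicate 2 (fold 3.85, 335 bp upstream) and none in the kainic acid lists.

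Large subunit genes showed a similar order of libraries. Of the 50, 3 had an end peak in saline replicate 2, and 4, 24 and 10 in kainic acid replicates 1, 2 and 3. The 3 with a peak in all kainic acid lists were Rpl24, Rpl22l1 and Rpl7l1. Rpl24 (chromosome 16, 55966275 to 55971437), whose protein takes part in a bridge between the subunits, had folds of 4.12, 5.68 and 3.91 at summits 769, 747 and 893 bp downstream of the start. Rpl22l1 (chromosome 3, 28805508 to 28807424), a paralog of Rpl22, had a peak over its start in each list, with folds of 3.62, 4.62 and 3.32 and summits at −2, 169 and 77 bp. It had a further peak near its far end in each list, with folds of 4.47, 6.19 and 5.40. Rpl7l1, a relative of Rpl7, is a doubtful case: its shared peak lay 430, 399 and 507 bp from its far end but only 70, 101 and 7 bp from an end of the neighbouring gene 2310039H08Rik.

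In the complex I group, 3 of 39 subunit genes had an end peak in saline replicate 2, and 1, 16 and 6 had one in kainic acid replicates 1, 2 and 3. Of the 8 assembly factor genes the counts were 0, 1, 4 and 1. Ndufb9, an accessory subunit gene, was the only subunit gene with an end peak in all 3 kainic acid lists (folds 2.93, 11.7 and 4.48). Its summits lay 213 to 254 bp outside Ndufb9 and 168 to 209 bp from an end of Tatdn1, so the site belongs as much to that neighbour. Ndufaf1 (chromosome 2, 119655446 to 119662839), whose product helps to assemble complex I, had folds of 4.47, 3.88 and 5.05 at summits 524, 175 and 446 bp downstream of its start, with the nearest other gene end 2457 to 2806 bp away.

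Ndufv2, a core iron-sulfur subunit gene of complex I, had the saline peak with the highest −log10 q of all members, while Rps13 and Ndufb7 had higher folds. In saline replicate 2 the fold was 4.77 and the rank percentile 3.28, with the summit 19 bp downstream of its start (chromosome 17, 66078795 to 66101559, minus strand). The kainic acid peaks lay elsewhere, 630 and 705 bp upstream of the start, with folds of 6.17 and 2.62 in replicates 2 and 3, and they did not overlap the saline peak. Kainic acid replicate 1 had none. Ndufb7 and Ndufs1 had a peak in saline replicate 2 only, with folds of 4.85 and 3.95. The one at Ndufs1 lay 489 bp from that gene and 480 bp from an end of Eef1b2, a translation elongation factor gene.

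Complexes III and IV were small groups. Of 8 Uqcr genes, 0 had an end peak in saline replicate 2, and 1, 5 and 2 in kainic acid replicates 1, 2 and 3. Uqcrb (chromosome 13, 66900576 to 66905350), a small ubiquinone-binding subunit gene, had one in each, with folds of 3.30, 6.45 and 3.74, all inside the gene 218 to 819 bp from its upper end. An end of Gm10767 lay 283 to 884 bp from these summits, so that window also belongs to a neighbour. Of 17 complex IV genes, 1 had an end peak in saline replicate 2 and 0, 5 and 2 in the kainic acid lists. That saline peak was at Cox4i1, the gene of the common isoform of subunit 4 (fold 3.97), and overlapped a weak peak of kainic acid replicate 2 (fold 2.84). No complex IV gene had an end peak in all 3 kainic acid lists, against 3.92% of all genes. Kainic acid replicate 1 had none at these genes, against 4.59% of all genes. With 17 genes these counts are too small to be read as a difference, and they were not tested.

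**Figure D3:**
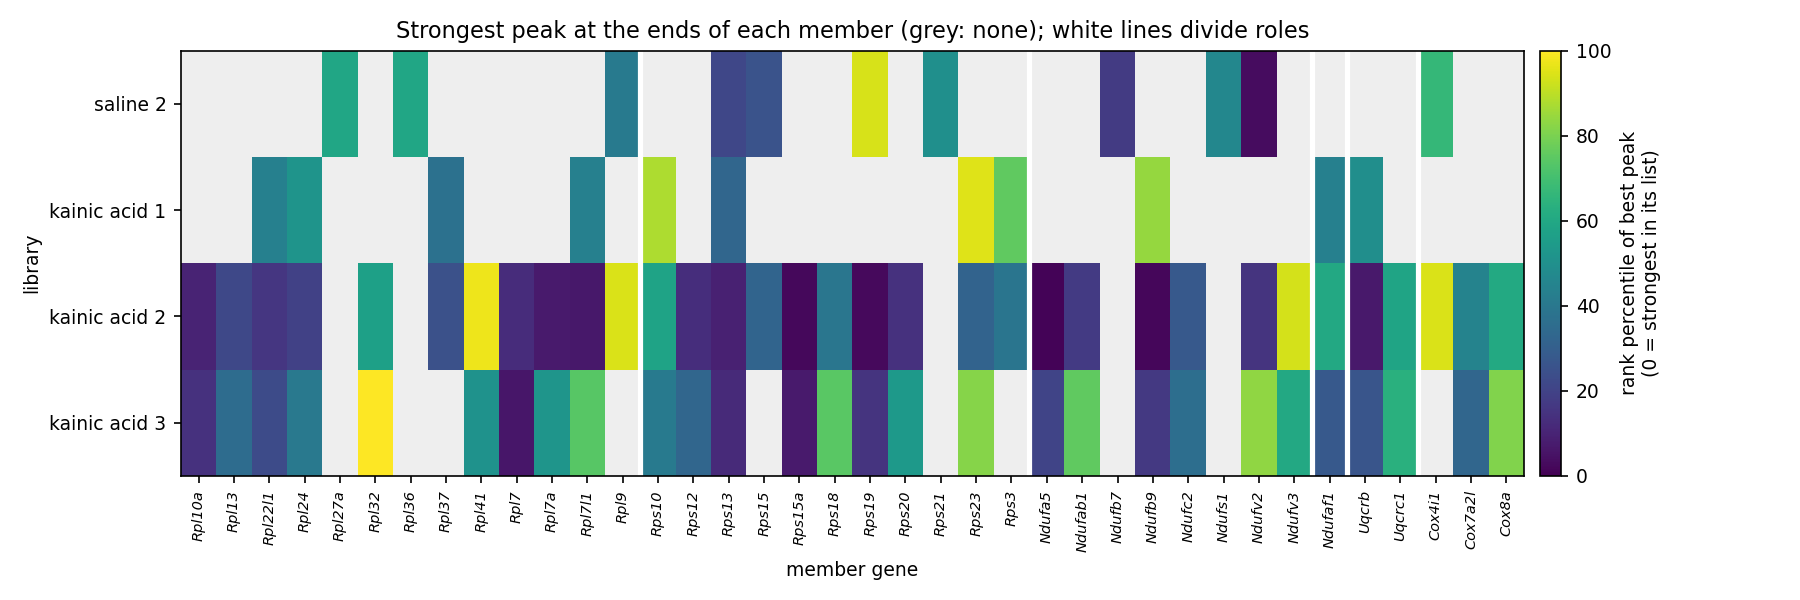
Rank percentile by −log10 q of the strongest peak at the ends of each member with an end peak in saline replicate 2 or in at least 2 kainic acid lists; 1 gene is not shown, rows are libraries, grey is no peak, and 0 is the strongest peak of a list. Rps13 is the only gene filled in all 4 rows. That most genes are filled in at least 2 kainic acid rows follows from how they were selected.

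Of the 11 members with an end peak in saline replicate 2, 6 also had one in at least 1 kainic acid list. Of the same 11, 3 had one in at least 2 kainic acid lists, namely Ndufv2, Rps13 and Rps19. That is 27.3% of the saline members and 9.68% of the 31 kainic acid members. Over all genes, 464 had both, 22.3% of the 2077 genes of saline replicate 2 and 21.0% of the 2208 kainic acid genes. Another 5 saline members had an end peak in no kainic acid list: Ndufb7, Ndufs1, Rpl27a, Rpl36 and Rps21. Over all genes, overlap with at least 1 or with no kainic acid list was not counted. The 6 and the 5 therefore cannot be set against a background. At Rpl27a and Rpl36 the saline folds were 3.40 and 3.89, and the Rpl36 summit lay inside the gene, 716 bp from its upper end and 767 bp from an end of Lonp1. Rpl9, Rps15 and Cox4i1 had one in kainic acid replicate 2 alone. The count of 3 was 1 without kainic acid replicate 2 and also 1 without replicate 3.

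As a share of each list, peaks at member ends made up 0.336% of the peaks of saline replicate 2 (11 of 3277, 95% Clopper-Pearson interval 0.168 to 0.60). They made up 0.0933%, 0.150% and 0.111% in kainic acid replicates 1, 2 and 3 (14, 95 and 33 peaks), a mean of 0.118% ± 0.0292 (SD, n = 3). Among peaks at any gene end, however, the order turned. Member ends took 0.571% of the gene-end peaks in saline replicate 2 and 1.50%, 1.46% and 1.46% in the kainic acid lists. Member ends thus took a larger share of all saline peaks and a smaller share of the saline peaks at gene ends.

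Strength was compared within each list. Peaks at member ends had a median rank percentile of 46.5 in saline replicate 2 and of 52.4, 57.2 and 40.6 in kainic acid replicates 1, 2 and 3. Peaks at any gene end had 47.1, 46.8, 50.4 and 46.7. Median folds at member ends were 3.95, 3.94, 3.68 and 3.92, against 4.04, 4.10, 4.06 and 3.80 at all gene ends. Median ranks and folds of member peaks lay near those of all gene-end peaks. No member had a peak among the strongest 25% of the list of kainic acid replicate 1, where 1.18% of all genes had an end peak. The 4 bands of saline replicate 2, from strongest to weakest, held 3, 4, 3 and 1 members (1.94%, 2.58%, 1.94% and 0.645%), against 2.97%, 2.73%, 2.51% and 2.38% of all genes. In kainic acid replicates 2 and 3, 22 and 9 members had one there, 14.2% and 5.81%, against 8.08% and 3.21% of all genes.

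**Figure D4:**
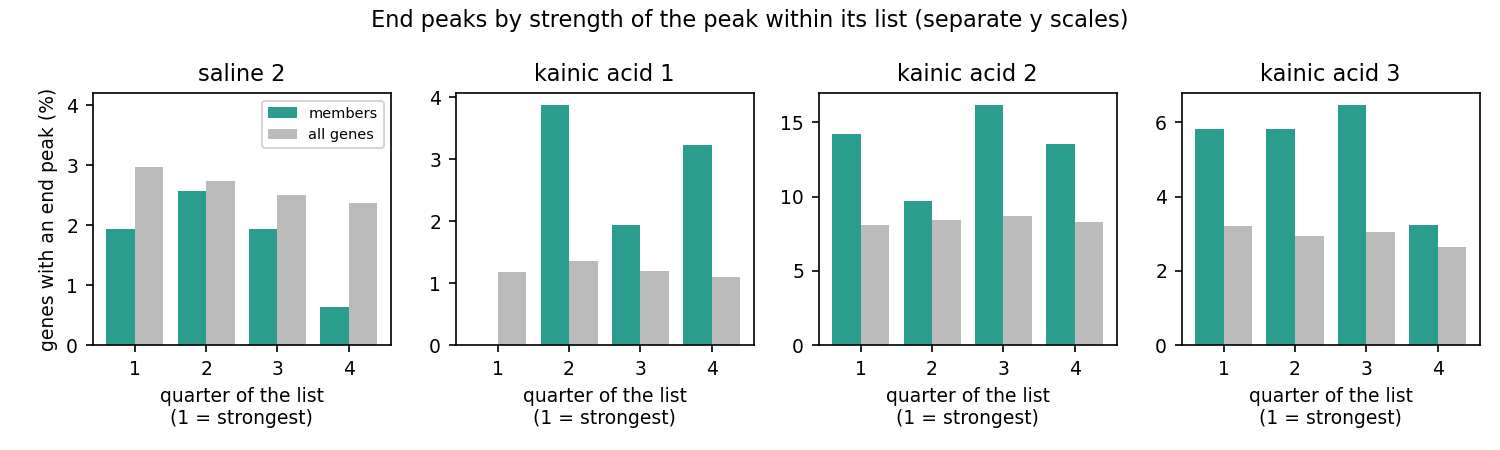
Percentage of members (green) and of all protein-coding genes (grey) with an end peak in each of 4 equal bands of a list ranked by −log10 q, for the 4 long lists with separate vertical scales. Kainic acid replicate 1 has 0 members in its strongest band, and members lie below the grey bar in each band of saline replicate 2.

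Lists of equal length gave a further view. Reduced to their 3277 strongest peaks by −log10 q, kainic acid replicates 1, 2 and 3 reached 0, 4 and 2 members at an end, which is 0%, 2.58% and 1.29%, a mean of 1.29% (0.645% without kainic acid replicate 2). Over all genes these shortened lists reached 0.963%, 1.96% and 1.45%. Saline replicate 2, with the same number of peaks, reached 7.10% of the members and 10.1% of all genes. At equal length the long saline list thus held more members than any kainic acid list. The shortened lists of kainic acid replicates 1 and 3 reached a smaller share of members than of all genes, and replicate 2 a larger one. The Clopper-Pearson intervals of the members' shares were 0 to 2.35, 0.708 to 6.48 and 0.157 to 4.58 in kainic acid replicates 1, 2 and 3. Each included the share of all genes, so these counts are too small to be read as a difference from the background. Equal length was not equal stringency. The shortened lists began at −log10 q of 10.4, 31.0 and 17.7, and the saline list began at 1.35. With a common minimum of 5, saline replicate 2 reached 2.58% of members (3.18% of all genes). Kainic acid replicates 1, 2 and 3 then reached 5.16%, 32.3% and 14.8% (3.09%, 19.5% and 7.71% of all genes).

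The members reached by the shortened lists were Ndufa5, Ndufb9, Rps15a and Rps19 in kainic acid replicate 2, and Rpl7 and Rps15a in replicate 3. They are named after their values were seen. Ndufa5, an accessory subunit gene of complex I, had the strongest member peak of any list by rank. Its fold was 12.2 in kainic acid replicate 2 (rank percentile 0.854) and 3.95 in replicate 3, with summits 36 and 35 bp downstream of its start. Rps15a had folds of 14.6 and 7.48 at a peak 11324 and 11487 bp downstream of its start, near the far end of the span. Neither had a saline peak at an end.

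Positions relative to the transcription start differed between the long saline list and the kainic acid lists. A start was known for 120 of the 155 members. Of these, 8 had a start peak in saline replicate 2 (6.67%, against 10.9% of genes with a start), and 6, 54 and 22 had one in kainic acid replicates 1, 2 and 3 (5.00%, 45.0% and 18.3%, against 4.14%, 27.5% and 10.2%). In saline replicate 2, the 8 member summits within 1 kb of a start lay at a median distance of 127 bp, and 6 of them lay within 250 bp. In kainic acid replicates 1, 2 and 3 the median distances were 653.5, 412 and 489 bp, and 1 of 6, 22 of 69 and 3 of 22 lay within 250 bp. The same held over all genes, with medians of 165 bp in saline replicate 2 and 526.5, 391 and 472 bp in the kainic acid lists. Of the member summits, 75.0%, 16.7%, 31.9% and 13.6% lay within 250 bp in these libraries, against 63.9%, 22.1%, 32.2% and 24.7% over all genes. The members thus followed the general pattern, in which summits of saline replicate 2 lay closer to the start than kainic acid summits. The saline side is a single library, and the difference was not tested.

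**Figure D5:**
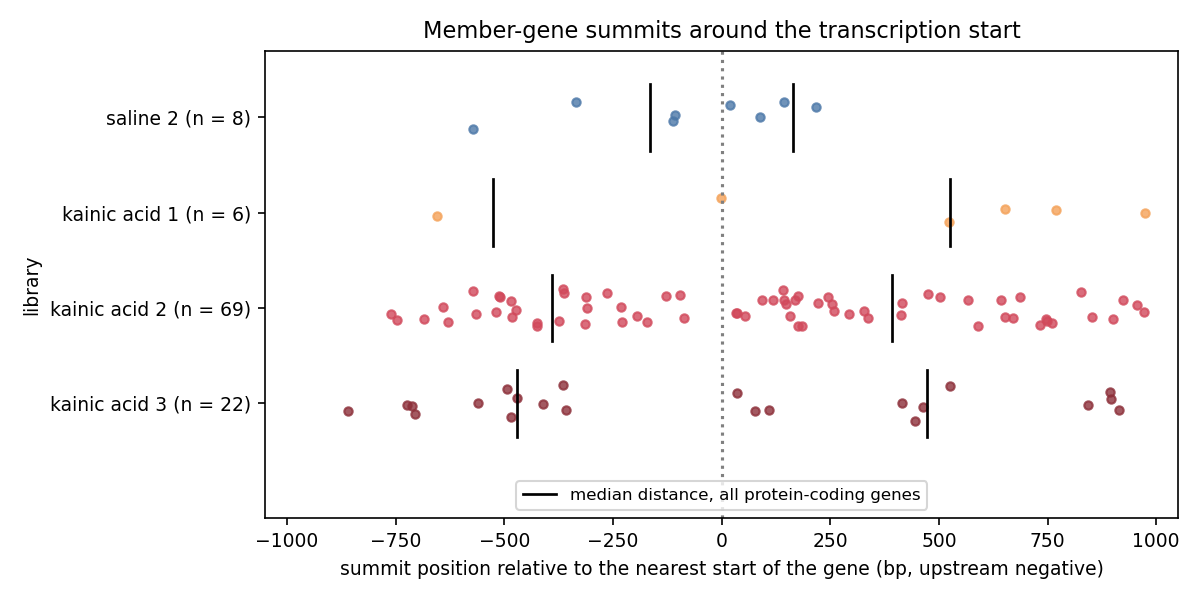
Position of each member summit within 1 kb of a transcription start, in bp from the nearest start of the gene (upstream is negative), in the 4 long lists; vertical spread within a row is arbitrary and black ticks mark the median distance over all protein-coding genes. The 8 saline summits cluster near 0 (median distance 127 bp), and the kainic acid summits lie farther out (653.5, 412 and 489 bp).

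Promoter letters were then counted in the 300 bases from 250 before to 50 after the start, 1 promoter per gene, for 120 members and 16457 protein-coding genes. AP-1 letters were found in 5 members (4.17%), against 7.12% of all promoters, and CRE letters in 9 (7.50%), against 2.40%. ETS letters were found in 33 members (27.5%), against 12.3%, NRF1 letters in 6 (5.00%), against 1.37%, and YY1 letters in 8 (6.67%), against 1.25%. Sp1 letters were found in 50.0% of the members and 47.3% of all promoters, and CCAAT in 32.5% and 39.1%. Ribosomal protein genes held AP-1 letters in 1 of 63 promoters and ETS letters in 22 of 63 (34.9%). A start base C followed by 4 further pyrimidines was also counted, as in the terminal oligopyrimidine tract of translation genes. It was found in 13 of 63 ribosomal protein genes (20.6%), 1 of 57 respiratory chain genes and 2.17% of all genes. Only the exact base of 1 annotated start per gene was read, so a tract that begins some bases away was missed. The share is thus not the share of genes with such a tract.

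Promoter letters were also counted by peak status. Of 25 members with a promoter sequence and an end peak in at least 2 kainic acid lists, 0 had an AP-1 match and 1, Rpl13, had a CRE match. Of 62 members with no kainic acid end peak, 3 had an AP-1 match (4.84%) and 6 a CRE match (9.68%). Of all 1777 such genes, 10.1% had an AP-1 match and 4.50% a CRE match, against 7.27% and 1.81% of the 11668 genes with no kainic acid end peak. Sp1 letters were in 19 of the 25 (76.0%), against 26 of 62 members with no kainic acid end peak (41.9%). Over all genes they were in 67.0% of the 1777, against 40.0% of the 11668, so the members followed the order of all genes. Most kainic acid summits at members lay outside these windows, so the counts describe the promoters and not the bound sites. In the printed stretches, the CRE match of Rpl27a is at position −97 from the start, and the saline summit there lay at −111. The AP-1 match of Rpl9 is at −115, while its saline summit lay 217 bp downstream.

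Other genes of translation and respiration were read in the same way. Of 78 mitochondrial ribosomal protein genes, 7 had an end peak in saline replicate 2 (8.97%), and 3, 32 and 8 had one in kainic acid replicates 1, 2 and 3 (3.85%, 41.0% and 10.3%). Their share with an end peak in at least 2 kainic acid lists was 8.97%, below the 20.0% of the members and near the background of 10.7%. Of 68 translation factor genes, 16 had an end peak in saline replicate 2 (23.5%), and 5, 44 and 16 in the kainic acid lists (7.35%, 64.7% and 23.5%), with 22.1% in at least 2. Of 17 ATP synthase genes the counts were 2, 2, 6 and 3. The 4 complex II genes had 0, 0, 4 and 1, the 6 acidic and fused ribosomal protein genes had 1, 2, 4 and 3, and Cycs and Cyc1 together had 1, 0, 0 and 0. Translation factors were thus above the background in saline replicate 2, where the members were below it.

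Finally, 43 of the 155 members (27.7%) had no peak of any list within 10 kb of the span, against 34.9% of all genes. By symbol prefix they were 13 large subunit, 12 small subunit, 8 complex I, 2 assembly, 1 complex III and 7 complex IV genes. Named by alphabet within the 4 main groups, they include Rpl10l, Rpl13a and Rpl14, Rps16 and Rps2, Ndufa11, Ndufa4 and Ndufa8, and Cox4i2, Cox6a2 and Cox6b1. Of the 16 duplicate or tissue-restricted paralogs 9 had none, and of the 9 retrocopies and relatives 5 had none. A gene without a peak had no region called there, and whether Fos was bound below the caller's threshold cannot be told from the lists.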

How the data were processed

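Per the submitters' processing notes, Trim Galore 0.6.4, Bowtie2 2.3.4.3, MACS2 and deepTools 3.5.0 were used with the build mm10. Peak names carry a mapping quality of 30. The q threshold and the control are not given in the sources used here. The deposited lists, 1 per library, hold positions, a linear fold ratio of peak over local background, a −log10 p and −log10 q per peak, and the authors' score, 10 times −log10 q rounded down. In the 4 long lists −log10 q began at 1.35 to 1.38. No read totals come with the lists, so depth is unknown. These values were used only within a list, apart from −log10 q minimums set alike for all lists. If reads were filtered at that mapping quality, reads that map to several places would be lost, which can hide peaks inside retrocopies.

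Peaks were assigned by summit to RefSeq gene spans of GRCm38.p6 (the mm10 assembly) in Python 3.11.15 with pandas 2.3.3, numpy 2.4.6 and scipy 1.17.1. The span table has no strand, so starts and strands came from the RefSeq promoter table, which matched 120 of 155 members. Counting was tested on simulated peaks. Libraries were compared by exact permutation over 20 assignments, and shares have 95% Clopper-Pearson intervals. The members and the lists were chosen with earlier results of these data known. Genes were named by role: up to 5 with end peaks in saline replicate 2 and at least 2 kainic acid lists, up to 3 in saline only, up to 4 in all 3 kainic acid lists only, and up to 3 with no peak within 10 kb, ordered by −log10 q, by mean rank or by alphabet. Some genes that this rule names are counted but not reported by name here. Ndufa5, Rps15a, Rpl7, Rpl9, Rps15, Rpl13, Cox4i1, Cox7c, Ndufa9, Ndufa10, Ndufb2, Uqcrh and Ndufa13 were named after their values were seen. Alternatives were other reaches, any base of a peak, higher −log10 q, equal list lengths, left-out libraries, a replicate block, and members without paralogs, starts only or short genes only.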

Additional observations from a re-analysis of the deposited data

How the results depend on the processing

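The kainic acid minus saline differences kept their direction under the alternatives run on them. The cut to equal list length was not among these. After that cut the kainic acid mean was 1.29% of members with an end peak, below the saline mean of 2.37%. Saline lists of 7 and 2 peaks held 0 members, and the replicate block cannot change a difference. The kept direction was thus largely set beforehand. Comparisons with the background and at equal list length did not all keep their direction. Of 77 alternative values for the comparisons, 63 kept their direction or stayed within their spread, interval or 1.5-fold limit. The difference in members with an end peak ran from 11.2 to 29.6 percentage points when one library was left out, and the 10 kb difference from 25.1 to 47.0. Their exact permutation tests cannot pass 0.05 at this size. For the end-peak difference, the exact permutation p was 0.2 at a reach of 0.5 kb and 0.4 at a −log10 q minimum of 10. At these settings kainic acid replicate 1 did not lie above saline replicate 2 (2.58% against 5.81% of members, and 0% in both). With the replicate block the differences were 21.5 and 37.2 (exact sign-flip permutation p = 0.25 in both, the smallest that 3 pairs allow); nothing in the labels ties equal numbers to one animal or day. Without the listed paralogs, kainic acid replicate 1 and saline replicate 2 each had 11 of 139 members and the exact permutation p was 0.2. Without both short saline lists, an alternative chosen after seeing the data, as was leaving out retrocopies and relatives, the differences were 16.8 and 27.3 (exact permutation p = 0.5 in both, where 0.25 is the smallest possible).

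Saline replicate 2 kept 2.58% of members with −log10 q of at least 5 and 0% at 10, where 0% of its peaks were at member ends. With kainic acid lists cut to its length, the kainic acid mean fell to 1.29% of members, below the 7.10% of saline replicate 2, and 0.0610% of peaks. Kainic acid replicate 1 (0% against 0.963%) and replicate 3 (1.29% against 1.45%) then had lower shares than all genes. Their Clopper-Pearson intervals included the shares of all genes, so no difference from the background can be read there. The mean share of kainic acid peaks at member ends was 0.169% at 2.5 kb and 0.0602% at 0.5 kb. Members with a saline peak and at least 2 kainic acid lists numbered 5 at 2.5 kb, 1 at 0.5 kb, 1 at a −log10 q minimum of 5, 0 at a minimum of 10, 0 at equal length, and 1 to 3 with one kainic acid library left out. The ratio to the background in kainic acid replicate 1 was 1.08 at 0.5 kb (4 members, against 9 in saline replicate 2) and 0 (0% against 1.05%) at a −log10 q minimum of 10. For named genes, 71 of 261 counts of kainic acid lists were lower and 0 higher. Fewer libraries, a shorter reach, a higher minimum and shorter lists can only lower such counts. Genes named for peaks in all 3 kainic acid lists could not go higher. The direction of these changes is thus no result about the genes. Lists of 7 and 2 peaks limit any saline value.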

Other observations

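Of the 155 members, 70 had an end peak in at least 1 kainic acid list and 85 had none. Of all 20665 protein-coding genes, 14684 had none. The 5 members with an AP-1 match were Cox7c, Rpl9, Ndufa9, Uqcrh and Ndufa13. Rpl9 had an end peak in saline replicate 2 and in 1 kainic acid list, Ndufa9 had one in 1 kainic acid list, and Cox7c, Uqcrh and Ndufa13 had none in any. Of the 9 members with a CRE match, 3 had a kainic acid end peak: Rpl13 in 2 lists, and Ndufa10 and Ndufb2 in 1 list each. Rpl27a had only a saline one. These are descriptions of few genes, with no test.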
